A study of Drosophila melanogaster with 8 samples.

Results

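Cytochrome P450 enzymes are heme monooxygenases that insert oxygen into steroids, fatty acids, hormones and foreign compounds. In insects they fall into the CYP2, CYP3, CYP4 and mitochondrial clans. Microsomal P450s draw electrons from the NADPH-P450 reductase Cpr, and mitochondrial ones from a ferredoxin reduced by dare. In the ring gland the best known members are the Halloween enzymes, which build ecdysone in the prothoracic gland and carry symbols of their own (spok, phm, dib, sad). The genes described here are the others. They were chosen by symbol alone, as every gene of the deposited table named Cyp followed by a digit. This gave 86 of 17558 genes. Of these, 85 are P450 genes, 3 of them pseudogenes, and 1 is not: Cyp1 encodes cyclophilin 1, a peptidyl-prolyl isomerase, and fits the rule only by its symbol.

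The ring gland is a composite organ of prothoracic gland, corpus allatum and corpus cardiacum, and it was dissected from wandering 3rd instar larvae of 2 genotypes. The first was kdm5[140], described by the study as a null allele of the histone demethylase gene Kdm5, at about 7 days after egg laying, and the second was the control w[1118] (WT) at about 5 days. Stage was matched and age was not, so age and genotype cannot be told apart. The same holds for any difference in genetic background between the w[1118] control and the kdm5[140] larvae. Each genotype gave 4 poly(A) mRNA libraries of 80 pooled glands, males and females in equal shares, and nothing was treated. Because these are pooled whole glands, fewer cells of a type and less RNA per cell cannot be told apart. Whether the pools came from separate cultures is not given in the sources used here, so the p-values measure only the spread between these pools.

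Total counts on genes ranged from 17131110 to 19494692 per library. Levels are counts per 1000000 counted reads after TMM scaling (CPM), and a gene was called when edgeR's quasi-likelihood test gave a Benjamini-Hochberg FDR under 0.01 over the 9317 genes that passed a filter on low counts. The Kdm5 gene itself, listed as lid, had 193 to 200 CPM in the libraries labelled kdm5[140] and 144 to 172 CPM in WT libraries, a log2 fold change of 0.35 (SE 0.07, FDR 0.00437). Its transcript was thus higher, not lower, and did not check the labels. That call was lost in 6 of 8 fits that left out a library. Markers of the labelled tissue were abundant in every library: those of the prothoracic gland summed to 30106 to 39102 CPM in the libraries labelled kdm5[140] and 41010 to 43950 CPM in WT libraries. The corpus allatum gene jhamt had 424 to 606 CPM against 554 to 601 CPM, and the corpus cardiacum hormone gene Akh had 1401 to 1563 CPM against 975 to 1454 CPM.

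Of the 86 genes, 43 passed the filter and 43 did not. Of those that did not, 3 had no count in any library (Cyp6a15Psi, Cyp9c1 and Cyp4d2), 30 had at most 10 counts in every library, and the highest count was 37, for Cyp6a8. For these genes a difference was mostly not detectable at this depth. The filter was passed through the libraries of both genotypes by 30 genes, mainly through the libraries labelled kdm5[140] by 7 and only through them by 3 (Cyp4e3, Cyp6a20 and Cyp6w1), and mainly through WT libraries by 3. A gene that passed only through the genotype in which it is high had to differ, so the counts below are descriptions.

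In the libraries labelled kdm5[140], 9 of the 43 tested genes were lower (20.9%) and 7 were higher (16.3%). Over all tested genes, 9.62% were lower and 7.91% were higher. Without Cyp1 the counts were 8 lower and 7 higher of 42 P450 genes. The calls included large changes in both directions, with 14 of 43 called at least 2-fold apart (32.6%, against 6.01% of all tested genes). The median log2 fold change was 0.46, against 0.02 over all tested genes, and the median of its absolute value was 1.16, against 0.25. More of these genes passed the filter mainly or only through the libraries labelled kdm5[140] than through WT ones, which can raise that median. Without the filter the median log2 fold change was 0.18, against 0.08 over all tested genes. Leaving out kdm5[140] replicate 4 brought the median log2 fold change to 0.19. The number lower was 5 without kdm5[140] replicate 2 or without WT replicate 3, and the number higher was 4 without WT replicate 2. Of 68 Cyp genes to which DESeq2 gave an adjusted p, it called 12 lower (17.6%, against 11.5% of all such genes) and 13 higher (19.1%, against 10.4%). The 2 genotypes did not overlap in 23 of 43 genes (53.5%, against 33.2% of all tested genes), 12 of them lower and 11 higher in the libraries labelled kdm5[140]. A further 9 genes had an FDR between 0.01 and 0.05: Cyp6a9, Cyp6d4 and Cyp4g15 with negative log2 fold changes, and Cyp12a4, Cyp9b2, Cyp4e3, Cyp4d1, Cyp301a1 and Cyp303a1 with positive ones. The remaining tested genes ran from -1.57 (Cyp4ac1) to 1.76 (Cyp28a5), with FDRs of 0.0961 to 0.997.

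**Figure D1:**
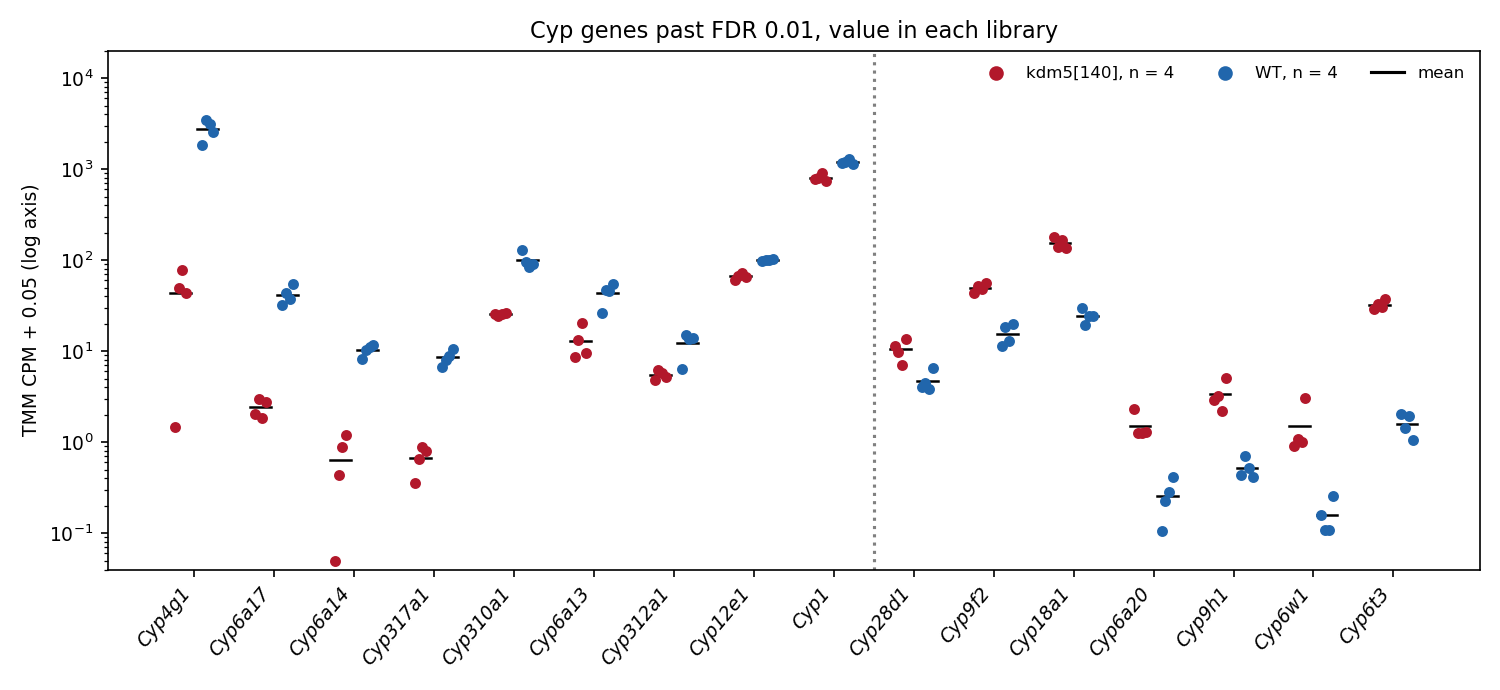
CPM plus 0.05 (log axis) of the 16 Cyp genes past FDR 0.01, ordered by fold change along the horizontal axis. Each point is a library, with those labelled kdm5[140] in red to the left of WT in blue, and bars mark means. No gene shown has overlapping genotypes, and Cyp4g1 and Cyp6a14 have a library labelled kdm5[140] far below the other 3.

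Within the rule, which leaves out the far more abundant Halloween genes (sad, phm and spok averaged 7374, 6719 and 6478 CPM per kilobase in WT libraries), most P450 transcript of the WT gland came from a pair of genes, Cyp4g1 and Cyp6g2. Per kilobase of gene length, Cyp4g1 averaged 1210 CPM in WT libraries (range 811 to 1524) and Cyp6g2 586 (range 558 to 626), and the next P450 gene of the rule, Cyp12e1, averaged 62.2 (range 60.3 to 64.2). Cyp1 stood between them at 985 (range 936 to 1063), within the spread of Cyp4g1. Cyp310a1 (60.4, range 50.8 to 79.2) could not be separated from Cyp12e1. It was followed by Cyp6v1 (38.3), Cyp6a13 (26.3) and Cyp6a17 (24.2), each with a range that overlapped that of the next. In the libraries labelled kdm5[140] the order was another. Cyp1 (652, range 600 to 738) and Cyp6g2 (565, range 498 to 660) overlapped at the top, and Cyp18a1 came next at 51.2 (range 45.0 to 58.5). Cyp6v1 (43.7), Cyp12e1 (41.1), Cyp9f2 (28.3), Cyp6u1 (20.0) and Cyp6t3 (19.2) followed, and Cyp4g1 stood at 19.0 with a range of 0.628 to 34.4. Cyp18a1 overlapped Cyp6v1 (range 37.1 to 47.9), which overlapped Cyp12e1 (range 37.4 to 44.8). Cyp6u1 overlapped Cyp6t3, and the range of Cyp4g1 held those of Cyp9f2, Cyp6u1 and Cyp6t3. The order among these overlapping genes is not settled.

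Summed over the P450 genes of the rule, the libraries labelled kdm5[140] held 1692, 1844, 2104 and 1946 CPM, against 3816, 5261, 4914 and 4351 CPM in WT libraries. Without Cyp4g1 and Cyp6g2 the sums were 701, 658, 713 and 850 CPM in the libraries labelled kdm5[140], against 723, 661, 607 and 652 CPM in WT libraries. The first sums did not overlap between genotypes and the second did. Cyp4g1 and Cyp6g2 made up 56.3 to 66.1% of the counts on P450 genes of the rule in the libraries labelled kdm5[140] and 81.1 to 87.6% in WT libraries.

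**Figure D2:**
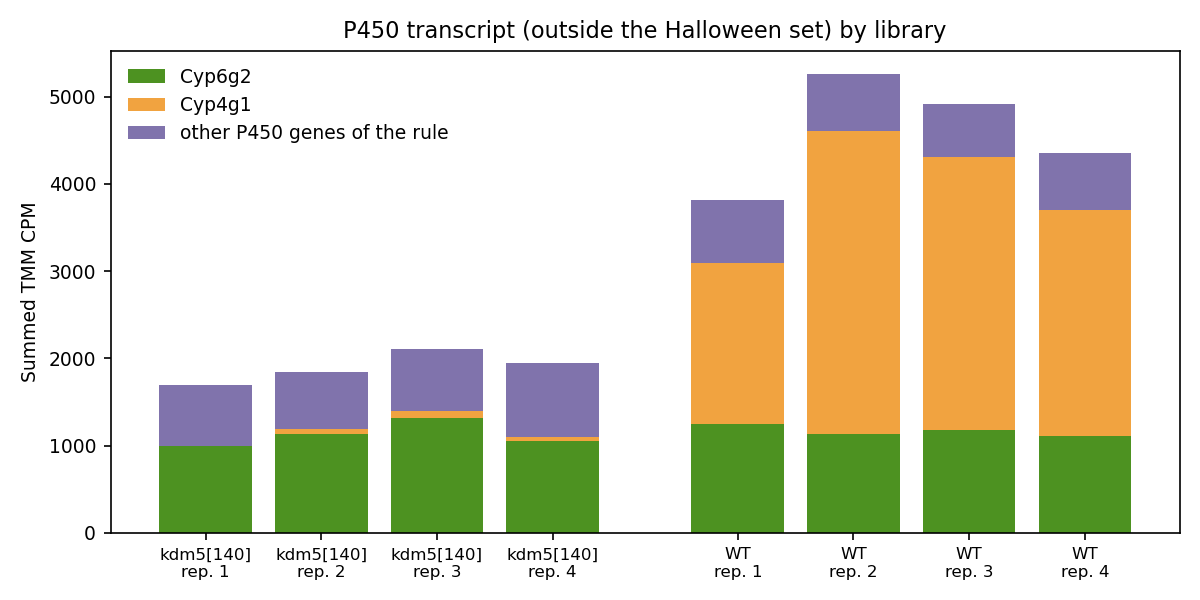
Summed CPM of the 85 P450 genes in each library, the 4 labelled kdm5[140] at the left and the 4 WT ones at the right, divided into Cyp6g2 (green), Cyp4g1 (orange) and all others (purple). Cyp6g2 takes 990 to 1313 CPM in the libraries labelled kdm5[140] and 1109 to 1244 CPM in WT ones, while Cyp4g1 takes at most 78.5 CPM in the first and at least 1849 CPM in the second.

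Cyp4g1 encodes the oxidative decarbonylase that forms cuticular hydrocarbons in oenocytes. Its position in dm6 is 467057 to 469335 on chromosome X, minus strand. It had 1.43, 49.5, 78.5 and 43.6 CPM in the libraries labelled kdm5[140], against 1849, 3473, 3123 and 2590 CPM in WT libraries. Every library labelled kdm5[140] was far below every WT library, and replicate 1 stood apart from the other 3. The means differed 63.8-fold, with a log2 fold change of -6.00 (SE 1.03, FDR 0.00574). The spread among libraries labelled kdm5[140] sets that error: without replicate 1 the log2 fold change was -5.59 (SE 0.34, FDR 7.06e-05). The call was kept without kdm5[140] replicate 1 or 3 and lost in the other 6 fits that left out a library, where the FDR reached 0.0243.

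The other matched oenocyte markers were also lower, KAR (1.89-fold) by far less than Cyp4g1 (63.8-fold). FASN2, a fatty acid synthase listed as v(2)k05816, had 2.04, 1.71, 13.1 and 10.6 CPM in the libraries labelled kdm5[140], against 117, 239, 162 and 311 CPM in WT libraries, with a log2 fold change of -4.93 (SE 0.76, FDR 0.00365). KAR, the 3-ketoacyl-CoA reductase listed as CG1444, had 89.2, 121, 117 and 97.1 CPM, against 174, 218, 208 and 205 CPM in WT libraries, with a log2 fold change of -0.92 (SE 0.11, FDR 3.01e-04). All 3 of the 4 listed oenocyte markers that could be matched were thus lower, Cyp4g1 itself among them (9.62% were lower over all tested genes). Their sum was 92.7 to 209 CPM in the libraries labelled kdm5[140] and 2139 to 3930 CPM in WT libraries. Most of it in WT libraries was Cyp4g1, so the sum adds little to the values of that gene. Among the libraries labelled kdm5[140], the order of Cyp4g1 (replicate 1 lowest, then 4, 2 and 3) was also that of the summed midgut markers (23.8, 560, 998 and 223 CPM in replicates 1 to 4) and salivary gland markers (212, 852, 2353 and 727 CPM). In WT libraries these sums were 14.7 to 94.3 CPM and 509 to 1168 CPM. The corpus allatum gene jhamt also had that order in the libraries labelled kdm5[140], as did Cyp6g2, Cyp12e1 and Cyp6a13, and FASN2 and KAR did not. Replicate 3 was the highest library of that genotype for 36.7% of all tested genes, so the order is not particular to these tissues. In WT libraries Cyp4g1 (replicate 1 lowest, then 4, 3 and 2) had the order of the salivary gland sum but not of the midgut sum. These orders were compared after the values were seen. The part of midgut or salivary gland in the Cyp4g1 difference was not tested.

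Cyp6g2, a CYP3 gene whose transcript is known from the corpus allatum, was the most abundant P450 of the rule in the libraries labelled kdm5[140] and did not change detectably. It had 990, 1137, 1313 and 1053 CPM there, against 1244, 1128, 1183 and 1109 CPM in WT libraries, and the genotypes overlapped. Its log2 fold change was -0.05 (SE 0.09, FDR 0.690). Cyp6u1 was as even, with 37.0 to 43.0 CPM in the libraries labelled kdm5[140] against 37.9 to 43.1 CPM in WT libraries and a log2 fold change of 0.00 (SE 0.07, FDR 0.997). Cyp6v1 had 139, 112, 145 and 134 CPM, against 159, 105, 102 and 98.0 CPM in WT libraries. It was not called with all libraries (log2 fold change 0.19, SE 0.16, FDR 0.395), and it was called without WT replicate 1, its highest WT library (0.38, FDR 0.00894).

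No list of P450 genes with a link to ecdysteroids was fixed, so the genes described next do not stand for a class. Cyp18a1 and Cyp6t3 have a known link outside the Halloween set. Both were higher in the libraries labelled kdm5[140] (7.91% were higher over all tested genes). Cyp18a1, the 26-hydroxylase that inactivates ecdysteroids, had 178, 141, 168 and 137 CPM in these libraries, against 30.0, 19.3, 24.5 and 24.2 CPM in WT libraries. The genotypes were far apart, and the means differed 6.36-fold (log2 fold change 2.67, SE 0.14, FDR 3.44e-06). Its position is 18688538 to 18693042 on chromosome X, minus strand. Cyp6t3, a CYP3 gene tied to ecdysone production in the prothoracic gland, had 29.0, 33.4, 30.4 and 37.1 CPM, against 1.97, 1.37, 1.88 and 0.999 CPM in WT libraries. This was a 20.9-fold difference and the smallest FDR of the 43 genes (log2 fold change 4.38, SE 0.20, FDR 9.28e-07). Both calls were kept in every fit that left out a library, with log2 fold changes from 2.57 to 2.78 for Cyp18a1 and from 4.22 to 4.52 for Cyp6t3. Exons of Cyp6t3 overlap CG8858 on the opposite strand, and whether reads were counted by strand is not given in the sources used here. CG8858 had 154 to 173 CPM in the libraries labelled kdm5[140] and 143 to 164 CPM in WT libraries, a log2 fold change of 0.10 (FDR 0.304).

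The Halloween P450 genes, which the rule leaves out, spanned a smaller range. Of 5 tested, spok was lower (log2 fold change -0.83, SE 0.10, FDR 3.57e-04) and dib higher (0.56, SE 0.11, FDR 0.00440). The shares over all tested genes were 9.62% lower and 7.91% higher. The dib call was lost in 4 of 8 fits without a library. phm (-0.22, FDR 0.0785), sad (-0.33, FDR 0.0251) and shd (2.22, FDR 0.0251) were not called, and spo was not tested. In the libraries labelled kdm5[140] spok had 5890 to 7897 CPM, against 11157 to 11915 CPM in WT libraries.

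Among the 25 tested CYP3 genes, 5 were lower and 6 were higher (9.62% and 7.91% over all tested genes), and the median log2 fold change was 0.60. Cyp6a17, which is known for its part in temperature preference, had the smallest FDR of the genes that fell. It had 1.99, 2.92, 1.81 and 2.74 CPM in the libraries labelled kdm5[140], against 32.1, 43.5, 37.2 and 54.2 CPM in WT libraries, a 17.6-fold difference (log2 fold change -4.13, SE 0.22, FDR 3.44e-06). Cyp6a14 had 0, 0.386, 0.846 and 1.15 CPM, against 8.23, 10.4, 11.0 and 11.7 CPM in WT libraries (-4.11, SE 0.68, FDR 0.00253). Its groups were well apart, but the call was lost without kdm5[140] replicate 2 or WT replicate 3. Cyp317a1 had 0.307, 0.607, 0.846 and 0.747 CPM, against 6.58, 8.04, 8.88 and 10.5 CPM in WT libraries (-3.75, SE 0.32, FDR 3.61e-05). Exons of Cyp317a1 overlap CG10249 on the opposite strand, which was itself lower by less (-1.03).

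Cyp310a1 was nearly constant in the libraries labelled kdm5[140], at 25.3, 24.2, 25.6 and 26.4 CPM, against 131, 95.5, 84.2 and 89.8 CPM in WT libraries. Its means differed 3.95-fold (log2 fold change -1.98, SE 0.13, FDR 9.86e-06). Cyp6a13 had 8.69, 13.4, 20.2 and 9.56 CPM, against 26.2, 47.0, 45.5 and 55.1 CPM in WT libraries. The gap between genotypes was narrow (-1.75, SE 0.32, FDR 0.00522), and the call was lost in 6 of 8 fits without a library and without the filter on low counts.

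Higher CYP3 genes ranged widely in level. Cyp9f2 had 43.4, 51.6, 48.5 and 55.8 CPM in the libraries labelled kdm5[140], against 11.5, 18.2, 12.9 and 19.7 CPM in WT libraries (log2 fold change 1.67, SE 0.17, FDR 1.61e-04). Cyp28d1, known for its part in nicotine tolerance, had 11.5, 9.71, 7.01 and 13.7 CPM, against 3.95, 4.41, 3.76 and 6.47 CPM in WT libraries. Its lowest library labelled kdm5[140] was close to the highest WT one (1.17, SE 0.25, FDR 0.00617), and the call was lost in 6 of 8 fits without a library. Cyp9h1 had 2.86, 3.20, 2.18 and 5.03 CPM, against 0.384, 0.655, 0.470 and 0.368 CPM in WT libraries (2.81, SE 0.38, FDR 5.21e-04).

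The remaining higher CYP3 genes were scarce. Cyp6a20, known for its effect on male aggression, had 2.25, 1.21, 1.21 and 1.24 CPM in the libraries labelled kdm5[140], against 0.0549, 0.179, 0.235 and 0.368 CPM in WT libraries (log2 fold change 2.78, SE 0.51, FDR 0.00309). Replicate 1 lay above the other 3, and without it the call was lost (2.50, FDR 0.0126), as it was without WT replicate 2 or 3. Cyp6w1 had 0.869, 1.05, 0.967 and 2.99 CPM, against 0.110, 0.0596, 0.0588 and 0.210 CPM in WT libraries (3.64, SE 0.64, FDR 0.00233). Its WT level lay around that of 3 counts, which is 0.149 to 0.181 CPM over the 8 libraries. The call was kept without kdm5[140] replicate 4, its highest library (3.03, FDR 0.00449), and lost without WT replicate 2 or 3.

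**Figure D3:**
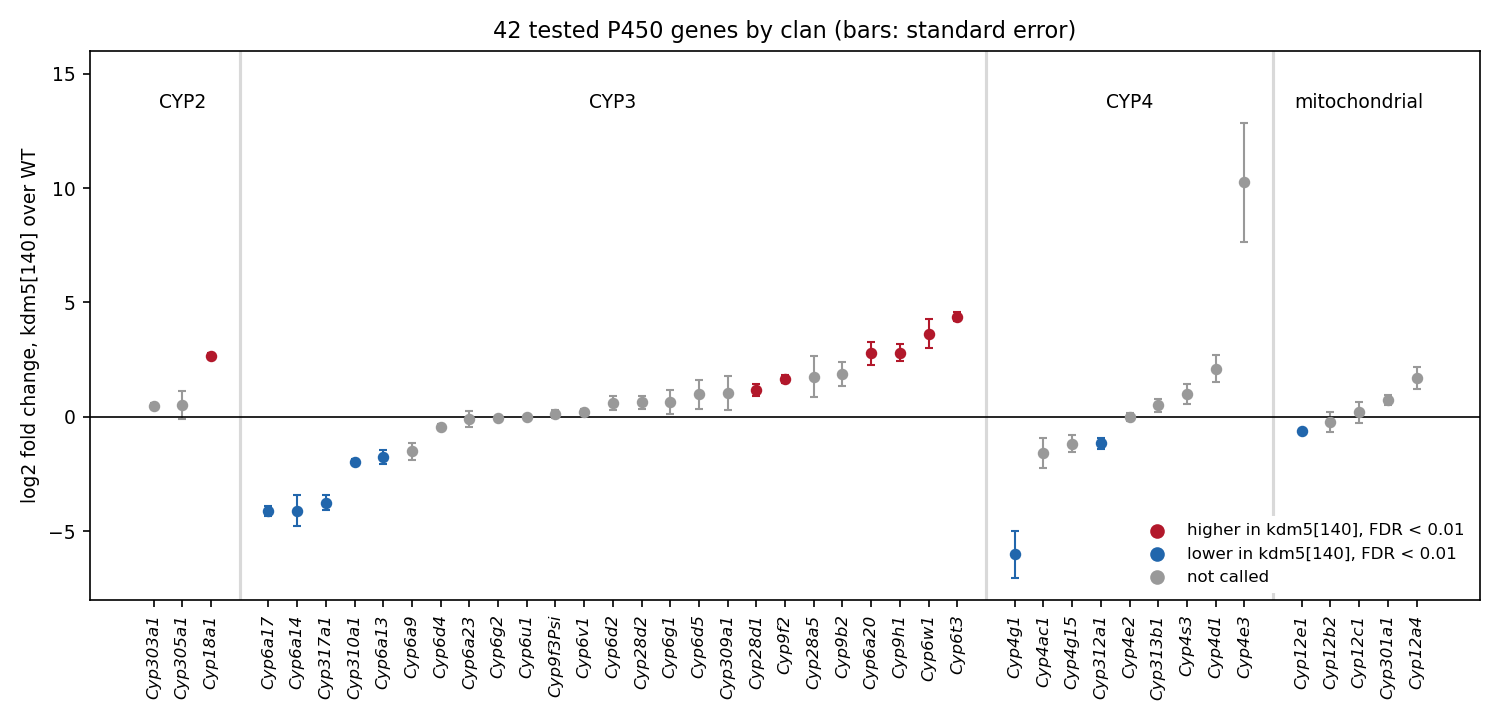
Log2 fold change, kdm5[140] over WT, of the 42 tested P450 genes (vertical axis, bars for the standard error), grouped along the horizontal axis by clan and ordered within it. Genes higher in the libraries labelled kdm5[140] are red, lower ones blue and those not called grey. The 11 calls of the CYP3 clan run from -4.13 (Cyp6a17) to 4.38 (Cyp6t3), and the widest bar belongs to Cyp4e3, at 10.25 ± 2.60.

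In the CYP4 clan 9 of 32 genes were tested and 2 were lower (9.62% were lower and 7.91% higher over all tested genes). The others were not called, among them Cyp4e3 and Cyp4d1, which DESeq2 called higher. The fall of Cyp312a1 was uneven, with 4.75, 6.18, 5.74 and 5.18 CPM in the libraries labelled kdm5[140], against 6.36, 15.0, 13.6 and 14.0 CPM in WT libraries (log2 fold change -1.16, SE 0.25, FDR 0.00676). WT replicate 1 came close to the libraries labelled kdm5[140]. Without it the log2 fold change was -1.38 (FDR 1.20e-04), and in each of the other 7 fits without a library the call was lost. Cyp4g15, a relative of Cyp4g1 known from the nervous system, had 6.95, 12.6, 5.92 and 11.1 CPM, against 36.1, 18.4, 13.3 and 14.3 CPM in WT libraries. The genotypes did not overlap but it was not called (-1.17, SE 0.38, FDR 0.0491), and DESeq2 did call it (FDR 0.00390).

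Cyp4e3 was the most uneven gene of the CYP4 clan. It had 8.74, 2.81, 0.785 and 89.7 CPM in the libraries labelled kdm5[140], against 0, 0, 0 and 0.0526 CPM in WT libraries. In counts this was 2037 against 1, a depth-adjusted ratio of 1947 with a 95% interval of 349 to 76929 that covers counting error only. All 4 libraries labelled kdm5[140] were above every WT library, and replicate 4 alone held most of the counts. The spread left the gene uncalled (log2 fold change 10.25, SE 2.60, FDR 0.0252). Without kdm5[140] replicate 4 the estimate was 7.62 and the gene was called (FDR 0.00218), as it was by DESeq2 (FDR 1.17e-06). Of 16 alternatives 3 called it, and voom gave 7.65 (SE 4.06, FDR 0.201). The estimate against a genotype with a single count depends on the prior count of the fit. Cyp313a4, left out of the edgeR test by the filter on low counts, had 12, 7, 13 and 19 counts in the libraries labelled kdm5[140], against 1, 0, 2 and 0 counts in WT libraries, a ratio of 16.2 with a 95% interval of 5.25 to 81.4. Cyp4e3 and Cyp313a4 fit the naming rule of at most 3 counts in every library of a genotype and more in every library of the other. Their intervals were thus bound to exclude an even ratio and do not test a difference. DESeq2 called Cyp313a4 higher (FDR 0.00161), and likewise Cyp4d8 (FDR 0.00248), named for that call, which had 11, 2, 7 and 23 counts against 0, 0, 1 and 0.

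Of the 5 tested mitochondrial P450 genes, edgeR called only Cyp12e1, as lower (9.62% were lower and 7.91% higher over all tested genes). DESeq2 also called Cyp12a4, as higher. In edgeR Cyp12a4 had a log2 fold change of 1.69 (SE 0.47, FDR 0.0214). Cyp12e1 had 60.6, 67.7, 72.6 and 65.5 CPM in the libraries labelled kdm5[140], against 97.8, 101, 100 and 104 CPM in WT libraries, a small and regular difference (log2 fold change -0.60, SE 0.07, FDR 1.73e-04). Cyp301a1, needed for the adult cuticle, had 10.5 to 16.1 CPM against 5.43 to 10.8 CPM and was not called (0.75, SE 0.22, FDR 0.0295). It shares exon bases with Ak6 on the opposite strand. The near-identical copies Cyp12d1-d and Cyp12d1-p had at most 4 counts in any library, and reads may have been split between them, so their values are uncertain. In the CYP2 clan, Cyp303a1, needed for the structure of sensory bristles, had 17.9 to 24.5 CPM against 11.8 to 18.2 CPM and was not called (0.46, SE 0.14, FDR 0.0345). It overlaps heix on the opposite strand.

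Cyp1, the cyclophilin, had 771, 790, 905 and 736 CPM in the libraries labelled kdm5[140], against 1170, 1210, 1305 and 1148 CPM in WT libraries. It was lower by 1.51-fold (log2 fold change -0.59, SE 0.08, FDR 6.00e-04) and stayed called in every fit that left out a library.

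Many P450 genes of flies lie in tandem runs. With genes joined when at most 20000 bases separated them, 49 of the 86 genes lay in 17 runs, and 5 runs held at least 2 tested genes. In 1 of these the calls went both ways, in 1 there were 2 calls in the same direction, and in 3 there was a single call. Over all tested genes 17.5% were called. The run with calls in both directions holds 9 genes on arm 2R, from Cyp6a22 to Cyp317a1. Within it Cyp6a17 was lower (log2 fold change -4.13), and Cyp6a23, which starts 89 bases after it on the same strand, was even (-0.11, SE 0.35). Cyp6a9 was not called (-1.51, FDR 0.0109), but DESeq2, voom and the fit with a gene length offset called it lower. Cyp6a20 was higher (2.78) and Cyp317a1 lower (-3.75). Cyp6a20 is the only higher gene of this run, and it passed the filter only through the libraries labelled kdm5[140]. Its call was lost in 3 of 8 fits without a library and with the replicate block. The calls in both directions rest on that gene. Paralogous neighbours of such a run resemble each other, and how the counting treated reads that fit several of them is not given in the sources used here. Also on 2R, Cyp6t3 (12190682 to 12192436, plus strand) and Cyp6g2 (12188338 to 12190377, minus strand) point away from each other across 304 bases. Their log2 fold changes were 4.38 and -0.05. Cyp6g1, whose overexpression gives resistance to DDT, overlaps the far end of Cyp6g2 on the opposite strand and was not called (0.65, SE 0.53, FDR 0.384). Cyp6a14 and Cyp6a13, with the pseudogene Cyp6a15Psi between them, were both lower.

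**Figure D4:**
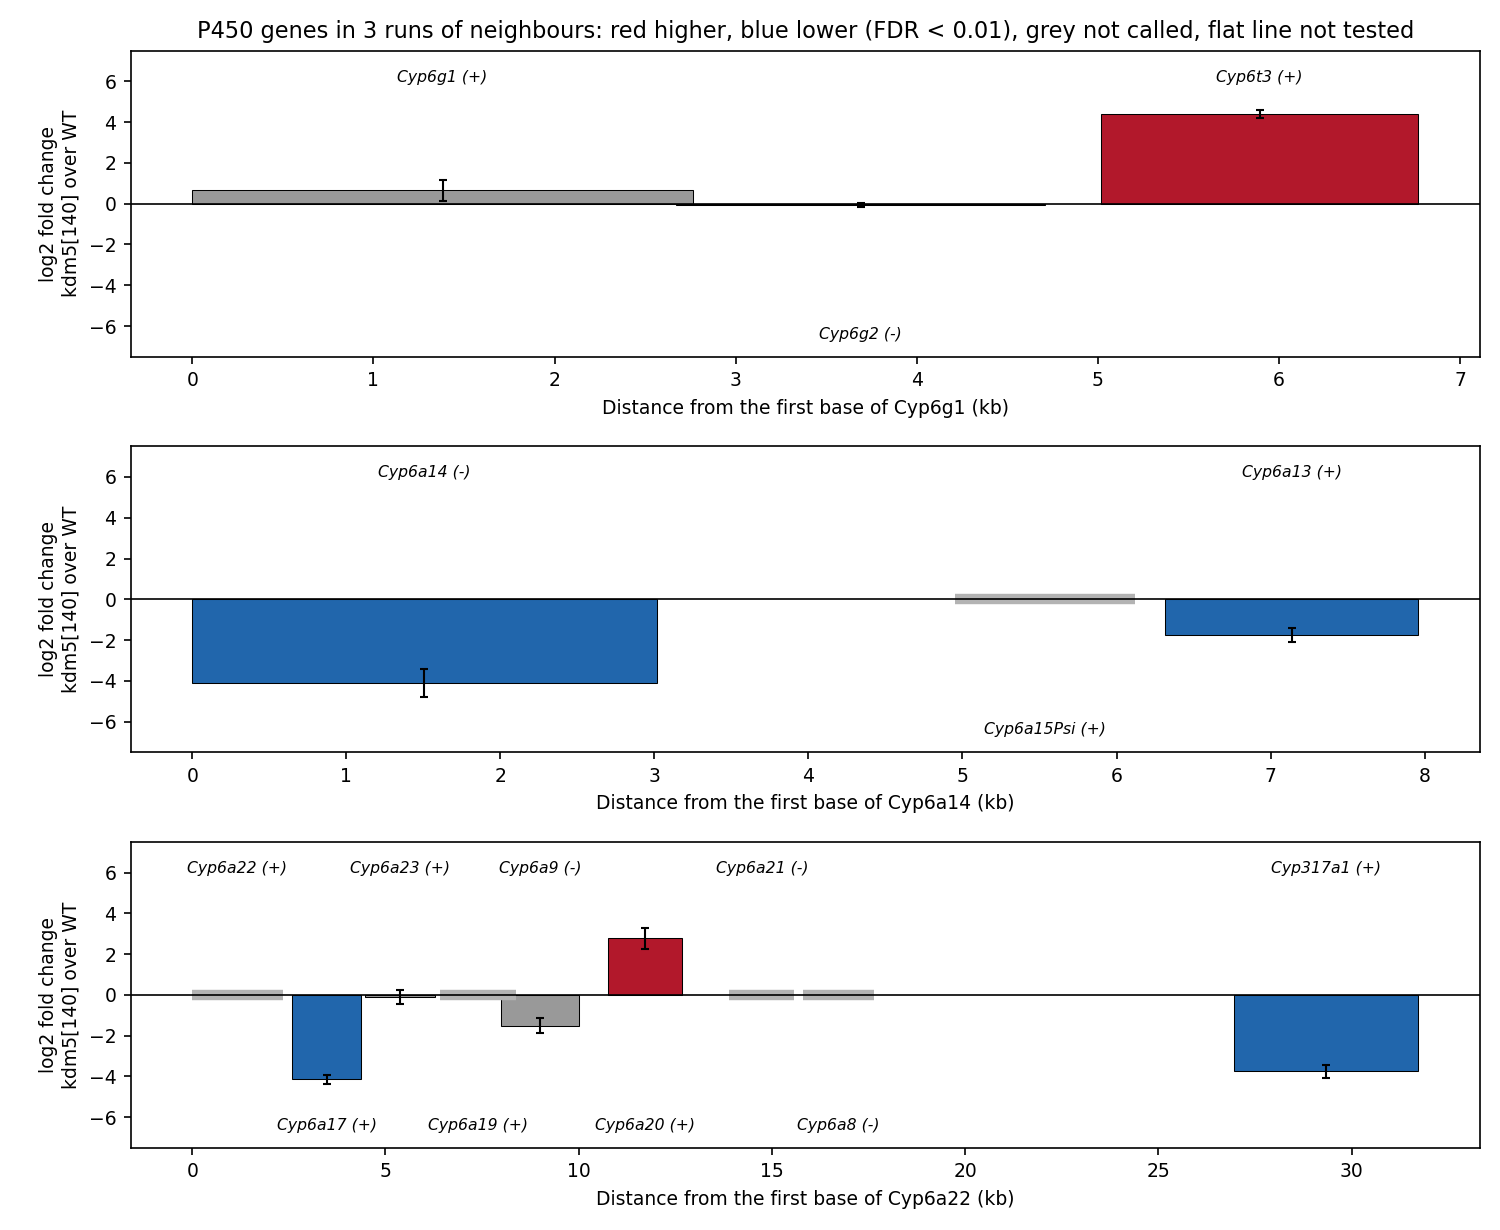
Log2 fold change, kdm5[140] over WT (vertical axis, bars for the standard error), against distance in kb from the first base of the run, for 3 runs of neighbouring P450 genes on arm 2R with the strand in brackets. Boxes span each gene, red for higher, blue for lower, grey for not called, and a flat grey line marks a gene not tested. Cyp6t3 (4.38) stands beside Cyp6g2 (-0.05), and Cyp6a17 (-4.13) beside Cyp6a23 (-0.11).

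Genes listed as electron donors of P450s were called in both directions. Of 6 tested, 2 were lower and 1 was higher (9.62% and 7.91% over all tested genes). Cpr, the microsomal reductase, had 242, 225, 263 and 219 CPM in the libraries labelled kdm5[140], against 405, 352, 355 and 358 CPM in WT libraries (log2 fold change -0.63, SE 0.08, FDR 3.43e-04). Cyt-b5, a further microsomal donor, was lower by less (-0.55, SE 0.10, FDR 0.00365), and that call was lost in 6 of 8 fits without a library. On the mitochondrial side the ferredoxin gene Fdx2, listed as CG1319, had 97.0, 95.4, 94.1 and 84.3 CPM, against 39.2, 39.2, 46.7 and 39.7 CPM in WT libraries. It was higher (1.17, SE 0.08, FDR 7.74e-06), while dare (0.03, SE 0.12, FDR 0.873) and Fdx1, listed as Fdxh (-0.22, FDR 0.372), were not called. Cyt-b5-r, a cytochrome b5-related gene of the list and not a reductase, was high in kdm5[140] replicate 4 (12.3 CPM). It had 1.69 to 3.48 CPM in the other 3 and 0.235 to 1.04 CPM in WT libraries. The gene was not called (2.82, SE 0.73, FDR 0.0175). Whether it donates electrons to P450s is not given in the sources used here.

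Of 11 factors known to act on insect P450 genes, 1 was lower and 1 was higher, a share close to the 17.5% of all tested genes that were called. Hnf4, a nuclear receptor, had 63.5, 58.2, 64.7 and 61.1 CPM in the libraries labelled kdm5[140], against 109, 117, 117 and 115 CPM in WT libraries (log2 fold change -0.89, SE 0.06, FDR 6.70e-06). The small Maf factor maf-S rose slightly (0.33, SE 0.08, FDR 0.00846), a call lost in 7 of 8 fits without a library. The xenobiotic receptor Hr96 (0.30, FDR 0.0382), the stress response factors cnc (0.29, FDR 0.142) and Keap1 (0.31, FDR 0.0492), and gce (0.48, FDR 0.0439) were not called. The same held for ss (-0.73, FDR 0.404), tgo (-0.05, FDR 0.667), EcR (0.09, FDR 0.409), usp (0.15, FDR 0.143) and Met (0.14, FDR 0.424).

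High values within a genotype often fell in a single library. Among the 42 tested P450 genes, kdm5[140] replicate 4 was the highest of its genotype for 22 (52.4%), against 21.9% of all tested genes. Examples outside the calls were Cyp4d1 (12.8, 7.56, 5.80 and 27.4 CPM in the libraries labelled kdm5[140], against 1.31 to 5.60 CPM in WT libraries), Cyp6g1 (9.45, 6.18, 7.19 and 25.2 CPM, against 4.89 to 13.2 CPM) and Cyp28a5 (2.86, 3.42, 0.665 and 9.36 CPM, against 0.0588 to 1.74 CPM). These 3 were named after their values were seen. In the same libraries the summed fat body markers were 3715, 2012, 1104 and 5708 CPM, against 811 to 2508 CPM in WT libraries, with FDRs of 0.124 to 0.943 for the 6 genes. Fbp1 was highest in replicate 1 (2262 CPM, against 1371 CPM in replicate 4) and Lsp1alpha in replicate 2 (35.1 CPM, against 19.4 CPM). The other listed fat body markers were highest in replicate 4. The summed hemocyte markers were 178 CPM in kdm5[140] replicate 4, against 53.5 to 77.2 CPM in the other 3 and 50.5 to 197 CPM in WT libraries. The part of either in these P450 values was not tested. Without kdm5[140] replicate 4 the calls of Cyp28d1 (1.02, FDR 0.0194), Cyp312a1, Cyp4g1 and Cyp6a13 were lost. Such losses were not particular to that library: 14 Cyp genes were called without it, against 10 without WT replicate 2 and 10 without WT replicate 3.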

How the data were processed

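The authors aligned paired reads to dm6 with HISAT2 2.0.5 and deposited whole-number counts per gene from featureCounts 1.5.0-p3, without normalization. StringTie 1.3.3b and DESeq2 1.20.0 are also named in their notes. The deposited table also holds FPKM per library, a mean signal per genotype (counts scaled by DESeq2 size factors), and the authors' own log2 fold changes and p-values. None of these was used.

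Counts were compared with edgeR 4.0.16 (TMM, filterByExpr, robust quasi-likelihood test, two-sided) in R 4.3.3, fitted on all genes of the 8 libraries with genotype as the only term. This test was run in place of the authors' DESeq2, which, as version 1.42.0, gave an alternative together with limma 3.58.1 (voom). Other scalings, filters, a gene length offset, protein-coding genes only, the replicate number as a block, an FDR of 0.05 and each library left out were also tried. The fit was tested on simulated data. Standard errors were derived from the F statistic. No library pair was alike within sampling noise. Ratios of summed counts carry exact 95% intervals for counting error only. Python 3.11.15 with pandas 2.3.3 and scipy 1.17.1 made the tables.

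The members and lists were chosen with earlier results of these data known. Genes named were those past an FDR of 0.01, the 8 with the highest CPM per kb in each genotype, those at or under 3 counts in every library of a single genotype and over it in every library of the other, 8 genes chosen for their roles, Cyp1, near-identical copies, and the listed partners, regulators and Halloween genes. Others named as neighbours were chosen after their values were seen. Gene positions are those of the table, and 84 of 86 genes had the same coordinates in the BDGP6 annotation used for gene overlaps.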

Additional observations from a re-analysis of the deposited data

Results flagged for a closer look

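Of 52 sets of 4 CPM values, each a named gene in 1 genotype, 8 held a library that stood apart from the other 3, by a gap past Dixon's critical value at 95%. For normally spread values chance flags about 1 in 20 such sets. A set with counts in only 1 library is flagged whatever the count, so that rate does not apply here. The library labelled kdm5[140] replicate 4 was high for Cyp4e3 (89.7 CPM), Cyp6w1 (2.99 CPM) and Cyp12d1-d (0.0996 CPM), and replicate 1 for Cyp6a20 (2.25 CPM). WT replicate 1 was high for Cyp6v1 (159 CPM) and Cyp12d1-d (0.110 CPM) and low for Cyp312a1 (6.36 CPM). WT replicate 4 was the only WT library with a count for Cyp4e3 (0.0526 CPM). The Cyp12d1-d values and that of Cyp4e3 in WT rest on at most 2 counts.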

How the results depend on the processing

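DESeq2 called 13 genes higher, as did an FDR threshold of 0.05 in edgeR. DESeq2 also called 2 genes of the electron donor list higher, Cyt-b5-r among them, and 2 Halloween genes lower and 2 higher. No regulator was higher without the filter on low counts or with the replicate block (0 in each). With each library left out in turn, 5 to 8 Cyp genes were lower and 4 to 7 higher, and the median log2 fold change ran from 0.19 to 0.49. It was also 0.19 by DESeq2, 0.18 without the filter and 0.21 with at least 1 CPM in 4 libraries. The medians over all tested genes in these 3 settings were 0.08, 0.08 and 0.04. With each library left out, 1 to 2 electron donors were lower and 1 higher, 1 regulator was lower and 0 to 1 higher, and 1 to 3 Halloween genes were lower and 0 to 1 higher. Directions turned only for genes near 0. Cyp6u1 was -0.0025 by DESeq2, -0.0012 by voom, -0.01 without the filter and -0.03 to 0.04 with a library left out. Cyp6g2 ranged from -0.14 to 0.0006 and dare from -0.10 to 0.10. The cause of these changes was not tested.

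The replicate numbers did not pair the libraries: deviations of libraries with the same number correlated at 0.0727, 0.1164, 0.1892 and -0.1166. With the replicate block, 8 Cyp genes were lower and 7 higher. The block ended the calls of Cyp4g1 (FDR 0.0195) and Cyp6a20 (FDR 0.0139) and added Cyp4e3 (FDR 6.86e-06). Genes under about 10 counts per library, 30 of the 43 not tested, limit what this depth can show.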
